A study of Mus musculus with 24 samples.

Results

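FAK, the focal adhesion kinase encoded by Ptk2, and 9 genes for proteins that surround it at focal adhesions were followed in cells treated with compounds aimed at FAK. The 10 genes were chosen by symbol as the core of the adhesion plaque, namely Ptk2, Pxn, Bcar1, Src, Tln1, Zyx, Ilk, Parva, Lims1 and Fermt2. All 10 were found among the 49315 genes of the count table, and all 10 were among the 16070 genes that passed the filter on low counts. Poly(A) RNA was sequenced from MS03, a murine Nf2-/- Schwann cell (SC) line, after 24 hours of treatment in medium with serum. MS03 is 1 immortalized line, made by giving Cre to SCs of an Nf2 flox/flox mouse, so that every group, DMSO included, lacked Nf2. The 8 groups of 3 libraries received DMSO, a kinase inhibitor at 1 μM (VS-4718, defactinib, IN10018 or GSK2256098), the PROTAC FAK degrader 1 at 1 μM, or the PROTACs GSK215 and BSJ-04-146 at 0.1 μM. A kinase inhibitor of FAK occupies the enzyme, whereas a PROTAC also carries a ligand for a ubiquitin ligase and marks the protein for degradation. Neither acts on Ptk2 mRNA directly, and these libraries hold mRNA and not protein.

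Focal adhesions join integrins, the receptors for the extracellular matrix, to the actin cytoskeleton. Talin (Tln1) and kindlin-2 (Fermt2) bind integrin tails and activate the receptor, and the complex of ILK, PINCH-1 (Lims1) and α-parvin (Parva) links the tails to actin. FAK and the tyrosine kinase Src sit on this platform and phosphorylate the scaffolds paxillin (Pxn) and p130Cas (Bcar1), whereas zyxin (Zyx) joins adhesions under tension. In SCs these contacts with the basal lamina take part in migration, radial sorting and myelination, and merlin, the product of Nf2, restrains signaling from them.

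Libraries held 14472462 to 27449516 counts, with a median of 17794597 over the 9 PROTAC libraries, 23056014 over the 12 kinase inhibitor libraries and 25126532 with DMSO. Between replicates, chi-square per degree of freedom over genes was 6.9 and 9.44 for GSK2256098 replicate 1 against the others of its group, which gave 1.97 between them, and 6.17 and 6.9 for IN10018 replicate 2, against 1.96. Without the first, 3 instead of 4 of the 10 genes were called with GSK2256098 against DMSO, and without the second, the count with IN10018 was 2 as before. PROTAC FAK degrader 1 replicate 3 gave 7.02 and 5.1, against 2.82 between the others of its group. Without it, the call of Ilk with that compound was lost. The counts behind the 10 genes ranged from 424 for Ilk in a GSK215 library to 14453 for Tln1 in a VS-4718 library. Of 10 markers of the SC lineage, 7 averaged at least 1 CPM, counts scaled to a common library size by TMM factors, among them Sox10 at 11.3 to 105 CPM, whereas S100b and Gap43 had at most 18 counts in any library. The summed level of these markers was 305 to 311 CPM with DMSO, 178 to 188 CPM with PROTAC FAK degrader 1, 397 to 410.1 CPM with VS-4718, 425 to 449 CPM with BSJ-04-146, 497 to 512 CPM with GSK215 and 278 to 359 CPM with the other 3 compounds. Cdh2 made up most of it with DMSO, at a mean of 196 CPM, and ranged from 70.4 to 232 CPM over the libraries. The fibroblast markers Col1a1 and Pdgfra were present and Dcn and Lum were at most 3 counts, with a sum of 291 to 297 CPM with PROTAC FAK degrader 1 and 361 to 515 CPM in the other 7 groups. Of 4 macrophage markers, Cd68 averaged at least 1 CPM, and their sum was 3.48 to 4 CPM with DMSO, 10.8 to 11.7 CPM with PROTAC FAK degrader 1, 7.6 to 9.04 CPM with BSJ-04-146, 5.93 to 7.62 CPM with GSK215, 4.82 to 6.02 CPM with VS-4718, 4.36 to 5.05 CPM with defactinib and 3.61 to 4.34 CPM with the other 2 compounds, whereas Ptprc and Adgre1 had at most 1 count. These shifts moved with the groups, and their part in the results on the adhesion genes was not tested.

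On GRCm38 the genes lie on 9 chromosomes of GENCODE M21, with Ptk2 at chr15:73205102-73423280, Bcar1 at chr8:111710474-111743809, both on the minus strand, and Zyx at chr6:42349630-42360213 and Lims1 at chr10:58323466-58424691 on the plus strand. The exons of 7 genes overlapped no other gene. Those of Ilk shared 76.7% of their length with Taf10 and 12.9% with Rrp8, both on the opposite strand, and those of Tln1 and Zyx shared 3.67% with Creb3 and 4.38% with Epha1. The strand setting of the counting is not given in the sources used here, so that the level of Ilk is uncertain.

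Sequences upstream of the start site are shown for Bcar1, Src and Zyx, whose levels moved together across libraries, and for Lims1 and Fermt2, which followed other patterns. They come from the RefSeq promoter table of GRCm38.p6, which held 7 of the 10 genes. Each begins 250 bases before the start site and ends there or where the first annotated exon begins, and capitals mark matches on either strand to 5 motifs that were searched, namely the GC box GGGCGG, the E-box CACGTG, the AP-1 motif TGANTCA, the TEAD motif GGAATG, and the CArG box. None of these motifs overlaps another in the stretches shown.
Bcar1, first of 2 start sites, chr8:111743850-111744099, minus strand: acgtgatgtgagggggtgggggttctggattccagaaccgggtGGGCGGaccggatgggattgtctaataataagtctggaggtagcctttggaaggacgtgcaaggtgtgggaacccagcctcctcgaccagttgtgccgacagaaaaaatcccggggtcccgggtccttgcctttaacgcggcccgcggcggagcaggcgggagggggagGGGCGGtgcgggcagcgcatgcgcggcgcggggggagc
Src, chr2:157424043-157424115, plus strand: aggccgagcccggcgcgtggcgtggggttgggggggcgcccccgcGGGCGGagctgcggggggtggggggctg
Zyx, chr6:42349578-42349629, plus strand: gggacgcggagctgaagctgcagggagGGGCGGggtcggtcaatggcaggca
Lims1, first of 3 start sites, chr10:58323297-58323465, plus strand: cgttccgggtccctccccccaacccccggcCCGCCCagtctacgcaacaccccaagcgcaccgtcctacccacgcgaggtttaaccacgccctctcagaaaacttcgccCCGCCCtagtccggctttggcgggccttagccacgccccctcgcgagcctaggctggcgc
Fermt2, chr14:45530119-45530315, minus strand: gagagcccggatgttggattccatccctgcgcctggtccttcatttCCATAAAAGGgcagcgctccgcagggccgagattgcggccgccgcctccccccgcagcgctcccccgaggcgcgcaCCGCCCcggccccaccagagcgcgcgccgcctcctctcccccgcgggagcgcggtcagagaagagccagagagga

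All 5 stretches held the GC box, as GGGCGG or its reverse complement CCGCCC. Of 32851 mouse promoter windows of 250 bases, 32.7% hold it, whereas all stretches shown but that of Bcar1 are shorter than 250 bases. The window of the other start site of Bcar1 and the second of Ilk held it too, and those of Tln1, the first start site of Ilk and the other start sites of Lims1 did not. The match in capitals at the left of the Fermt2 stretch is a CArG box, the motif bound by serum response factor, and lies 204 bases before the start site. Of all windows, 1.47% hold a CArG box. In the whole window of Zyx, TGANTCA, the motif of AP-1 factors, was matched once, 121 bases before the start site and within an annotated exon, whereas 6.75% of all windows hold it. No match to GGAATG, found in 12.6% of all windows, was present in any of the 11 windows of the 7 genes. CACGTG, in 6.02% of all windows, was matched once in a window of Ilk and once in the third window of Lims1. These matches are descriptions of the letters in these windows.

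In DMSO, expressed per kilobase of merged annotated exon, Tln1 had the highest value of the 10 genes and Ptk2 the lowest. The divisor joins the exons of all annotated transcripts of a gene, 11803 bases from 15 transcripts for Ptk2 and 2744 from 12 for Ilk. It can exceed the length of the mRNA expressed, so that the order can depend on the annotation. Tln1 was at 47.1 ± 0.677 CPM per kilobase (SD, n = 3), followed by Zyx at 40.7 ± 1.43, Bcar1 at 35.3 ± 0.758 and Src at 31.2 ± 0.832. Fermt2 at 22.1, Pxn at 21.6 and Lims1 at 20.8 CPM per kilobase came next, and the libraries of Fermt2 overlapped those of Pxn, as those of Pxn did those of Lims1. Parva was at 12.3, Ilk at 10.1 and Ptk2 at 8.08 ± 0.203 CPM per kilobase. The libraries of all other neighbours in this order did not overlap, although the value of Ilk carries the uncertainty of its shared exons. Over the 8 groups, replicates of a group differed little, and the median coefficient of variation was lowest for Tln1 at 1.5% and highest for Ilk at 4.8%.

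**Figure D1:**
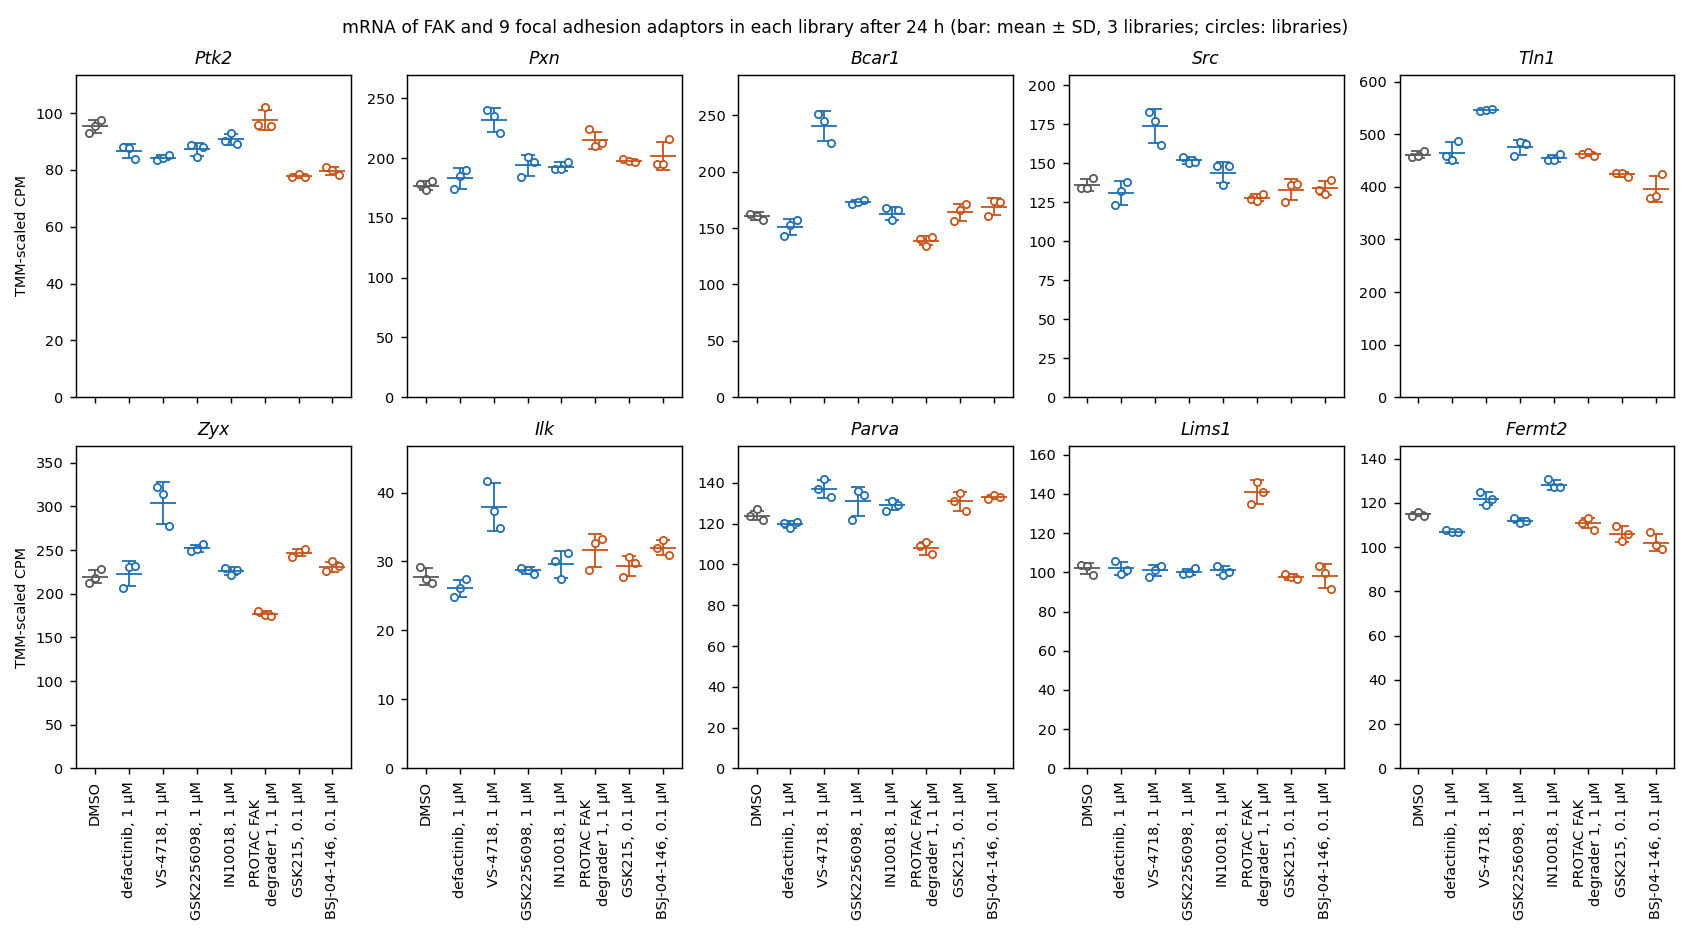
Level of each of the 10 genes in every library, as CPM scaled by TMM factors on a linear axis from 0, for the DMSO group (grey), the kinase inhibitors (blue) and the PROTACs (orange). Circles are libraries, bars the mean and SD of 3 libraries, and Lims1 stands at 135 to 146 CPM with PROTAC FAK degrader 1 against 91.3 to 106 CPM in all other libraries.

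Each compound was set against DMSO to ask whether inhibiting or degrading FAK changed transcripts of the adhesion machinery itself. With VS-4718, 9 of the 10 genes changed, 8 higher and Ptk2 lower, whereas 39.2% of all genes tested were called. The median log2 fold change over the 10 genes was 0.298 with VS-4718 and 0.005 over all genes tested. Defactinib changed 2 of the 10 genes, both lower, beside 22.4% of all genes, and IN10018 changed 2, both higher, beside 13.3%. The count with defactinib was 1 when any of the 6 libraries compared was left out, and that with IN10018 was 1 without DMSO replicate 1 or 2 or IN10018 replicate 1 or 3. GSK2256098 changed 4, with 3 higher and 1 lower, beside 12.5% of all genes.

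With the PROTACs more genes were called across the table, and the 10 genes were split between directions. PROTAC FAK degrader 1 changed 6 of the 10, with 3 higher and 3 lower, beside 66.8% of all genes tested. GSK215 changed 5, with 2 higher and 3 lower, beside 54.7%, and BSJ-04-146 changed 6, with 3 higher and 3 lower, beside 54.6%. The median log2 fold change over the 10 genes lay between -0.057 and 0.058 for these 3 PROTACs and the other 3 kinase inhibitors. Abundant genes are called more often, and among 6614 genes with a mean as high as the lowest of the 10 (30.4 CPM) the share called was 59.2% with VS-4718, 22.6% with GSK2256098, 23.9% with IN10018, 38.5% with defactinib, 83.8% with PROTAC FAK degrader 1, and 74.4% each with GSK215 and BSJ-04-146. With VS-4718, 9 of 10 genes stood against that 59.2%, and the count was 8 to 9 when single libraries were left out. The 4 genes with GSK2256098 became 2 to 3 when any of the 6 libraries compared was left out, and the 2 with IN10018 were near its share. Scaling by library totals alone moved the calls over all genes with GSK215 from 4407 higher and 4379 lower to 6190 and 2867, with BSJ-04-146 from 4451 and 4320 to 6018 and 2966, and with VS-4718 from 3273 and 3030 to 4015 and 2394. Of the 10 genes it then called 5 higher and 1 lower with GSK215, 5 higher and 2 lower with BSJ-04-146, and 8 higher and 1 lower with VS-4718. No member changed 2-fold, and the requirement of a 1.5-fold change left 1 gene, Bcar1 with VS-4718, which was at that limit. It fell under it without VS-4718 replicate 1 (log2 value 0.54) or 2 or DMSO replicate 2 or 3, with limma-trend (0.57), DESeq2 or no filter, and in a fit of the 6 libraries alone.

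**Figure D2:**
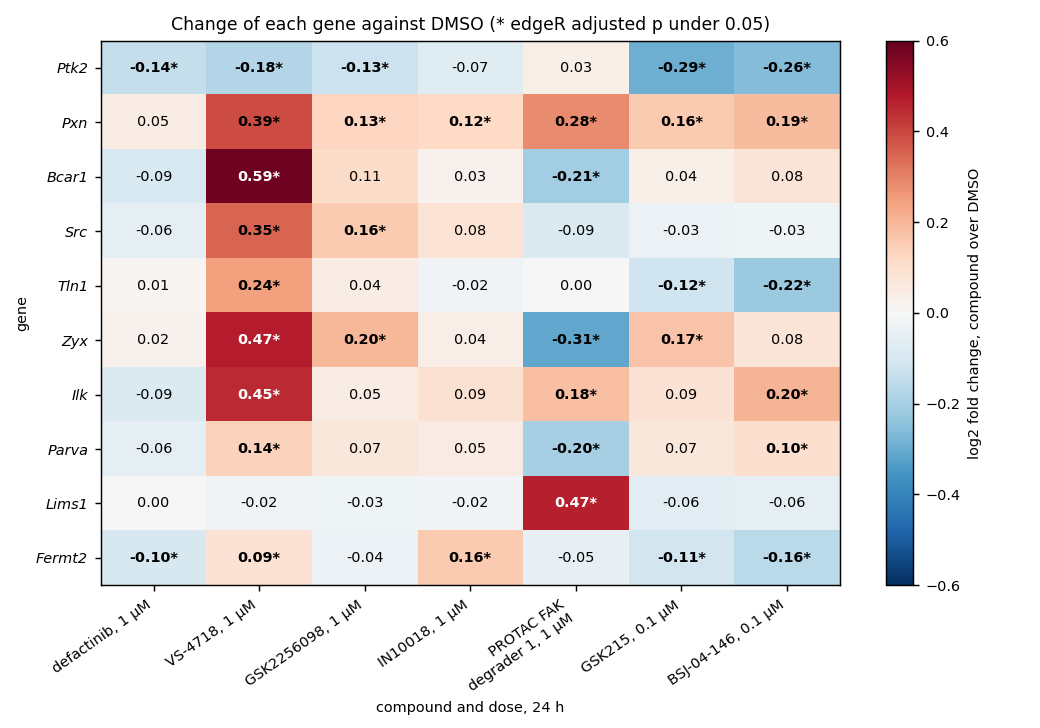
Log2 fold change of each of the 10 genes (rows) with each compound over DMSO (columns), as a color and a printed value, with an asterisk where the edgeR adjusted p was under 0.05. The column of VS-4718 holds 8 higher values with an asterisk, up to 0.59 for Bcar1, and the row of Ptk2 holds no higher value with one.

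Ptk2, which encodes FAK, fell with 5 of the 7 compounds and rose with none. Its level was 92.9, 95.4 and 97.7 CPM in the DMSO libraries, 77.6, 78.6 and 77.4 CPM with GSK215, and 81, 80.1 and 78.1 CPM with BSJ-04-146. All 6 libraries of these PROTACs lay below the 3 DMSO libraries. The log2 fold change was -0.29 with GSK215 (95% CI -0.37 to -0.22, adjusted p = 6.47e-09) and -0.26 with BSJ-04-146 (95% CI -0.33 to -0.18, adjusted p = 9.62e-08). With libraries scaled by totals alone these were -0.17 and -0.15, still past the threshold. Smaller decreases followed VS-4718, with a mean of 84.3 CPM (log2 fold change -0.18, adjusted p = 6.53e-05), defactinib, with 86.5 CPM (-0.14, adjusted p = 0.00253), and GSK2256098, with 87.2 CPM (-0.13, adjusted p = 0.0101). The call for GSK2256098 was lost without DMSO replicate 3 (adjusted p = 0.059) or GSK2256098 replicate 2 (adjusted p = 0.0755).

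With the other 2 compounds no change in Ptk2 passed the threshold. IN10018 libraries were at 90.1, 92.9 and 89.2 CPM, with a log2 fold change of -0.07 (adjusted p = 0.183). PROTAC FAK degrader 1 libraries were at 95.7, 102 and 95.6 CPM, which overlapped DMSO, with a log2 fold change of 0.03 (95% CI -0.04 to 0.11, adjusted p = 0.396). When libraries were scaled by their totals alone, this value was 0.12 and passed the threshold (adjusted p = 0.004), and the median over all genes tested was then 0.086.

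Of the substrates and partners of FAK, Pxn was the gene called most often. Paxillin is a scaffold that binds FAK and is phosphorylated by it. Pxn rose with 6 compounds and was at 174, 185 and 190.5 CPM with defactinib, which overlapped the DMSO values of 178, 173 and 181 CPM (log2 fold change 0.05, adjusted p = 0.451). The VS-4718 libraries were at 240.4, 235 and 221 CPM, all above DMSO (log2 fold change 0.39, 95% CI 0.31 to 0.47, adjusted p = 6.62e-11). With PROTAC FAK degrader 1 they were at 224, 209.8 and 213 CPM (0.28, adjusted p = 3.49e-08). The increases with GSK215, BSJ-04-146, GSK2256098 and IN10018 were 0.16, 0.19, 0.13 and 0.12 on the log2 scale, with adjusted p between 8.09e-05 and 0.0322. With totals alone they were 0.28 with GSK215 and 0.30 with BSJ-04-146. The calls with GSK2256098 and IN10018 were each lost without DMSO replicate 1 or 2, that with GSK2256098 also without its replicate 2 or 3 and that with IN10018 also without its replicate 1 or 3, with adjusted p up to 0.151 and 0.142.

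Bcar1, whose product p130Cas is a docking protein phosphorylated by the FAK and Src pair, showed the widest range of the 10. Its level was 163, 161 and 157 CPM with DMSO, 251, 245 and 226 CPM with VS-4718 and 140.4, 134 and 142 CPM with PROTAC FAK degrader 1. The 3 groups did not overlap, with VS-4718 above DMSO and PROTAC FAK degrader 1 below it. Bcar1 rose 1.5-fold with VS-4718 (log2 fold change 0.59, 95% CI 0.51 to 0.66, adjusted p = 2.2e-15) and fell by 0.21 on the log2 scale with PROTAC FAK degrader 1 (95% CI -0.29 to -0.12, adjusted p = 2.48e-05), or by 0.13 (log2 fold change -0.13) with totals alone. The other 5 compounds gave means of 151 to 173 CPM, and none passed the threshold. With GSK2256098 the libraries were at 171, 173 and 175 CPM, all above DMSO (0.11, adjusted p = 0.0651). That increase was called with totals alone, with the 6 libraries alone and with adjustment over all comparisons. With totals alone it was also called with GSK215 (0.16, adjusted p = 0.000813) and BSJ-04-146 (0.19, adjusted p = 0.000115).

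Src, the tyrosine kinase that partners FAK, rose with 2 kinase inhibitors. It was at 134, 134 and 140.3 CPM with DMSO and at 183, 177 and 162 CPM with VS-4718 (log2 fold change 0.35, 95% CI 0.27 to 0.44, adjusted p = 7.04e-09). With GSK2256098 it was at 154, 150.3 and 150.5 CPM, above every DMSO library (log2 fold change 0.16, adjusted p = 0.0109), a call lost without DMSO replicate 1 or 2 or GSK2256098 replicate 1 (adjusted p up to 0.0645). The means with the other 5 compounds were 128 to 144 CPM and did not pass the threshold.

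Among the activators of integrins, Tln1 rose with VS-4718 and fell with GSK215 and BSJ-04-146. Talin links the integrin tail to actin. It was at 456, 459 and 469 CPM with DMSO and at 544, 546 and 549 CPM with VS-4718 (log2 fold change 0.24, adjusted p = 1.77e-07). BSJ-04-146 libraries were at 379.5, 383 and 424 CPM, all below DMSO (log2 fold change -0.22, adjusted p = 6.14e-07). GSK215 libraries were at 427, 427 and 418 CPM (-0.12, adjusted p = 0.0026), but the direction turned to 0.001 when libraries were scaled by totals alone. That scaling placed the all-gene median log2 value at 0.143 with GSK215 and 0.126 with BSJ-04-146, where Tln1 was still lower (-0.11, adjusted p = 0.00594).

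Fermt2, for kindlin-2, moved by little but in narrow groups. It was at 114, 116 and 114 CPM with DMSO, 131, 127 and 127 CPM with IN10018 and 107, 101 and 99.4 CPM with BSJ-04-146. IN10018 lay above and BSJ-04-146 below every DMSO library, with log2 fold changes of 0.16 (adjusted p = 0.000754) and -0.16 (adjusted p = 8.94e-05). Under scaling by totals the change with BSJ-04-146 missed the threshold (adjusted p = 0.174). Decreases with GSK215 (-0.11, adjusted p = 0.00477) and defactinib (-0.10, adjusted p = 0.0322) and the increase with VS-4718 (0.09, adjusted p = 0.0269) were less stable. The value for GSK215 turned to 0.01 with totals alone and missed the threshold without GSK215 replicate 2 (adjusted p = 0.052). That for defactinib missed it when any of the 6 libraries compared was left out (adjusted p up to 0.1), and that for VS-4718 with DESeq2 and when any of these but VS-4718 replicate 2 was left out (adjusted p up to 0.2).

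Zyx encodes zyxin, a LIM protein that is recruited to adhesions and stress fibers by force. It was at 212, 218 and 228 CPM with DMSO, 322, 314 and 277 CPM with VS-4718 and 179.8, 176 and 174 CPM with PROTAC FAK degrader 1. As for Bcar1, VS-4718 lay above and PROTAC FAK degrader 1 below every DMSO library. The log2 fold change was 0.47 with VS-4718 (95% CI 0.39 to 0.55, adjusted p = 2.17e-12) and -0.31 with PROTAC FAK degrader 1 (95% CI -0.40 to -0.23, adjusted p = 1.69e-08). Zyx also rose with GSK2256098 to 252 CPM (0.20, adjusted p = 0.000581) and with GSK215 to 247 CPM (0.17, adjusted p = 0.000514), or 0.29 with totals alone.

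The 3 genes of the ILK, PINCH and parvin complex did not move together. Lims1, for the PINCH-1 adaptor that binds ILK, rose with PROTAC FAK degrader 1 and with no other compound. Its DMSO libraries were at 104, 103 and 98.7 CPM and those of PROTAC FAK degrader 1 at 135, 146 and 141 CPM, with no overlap. The log2 fold change was 0.47 (95% CI 0.39 to 0.54, adjusted p = 7.16e-14), and the other 6 compounds gave means of 97.7 to 102 CPM with log2 fold changes of -0.06 to 0.002. Parva, for the actin-binding α-parvin, fell with the same compound from a mean of 124 CPM to 109, 111 and 105 CPM (-0.20, adjusted p = 8.08e-06), or by -0.12 on the log2 scale with totals alone. It rose with VS-4718 to 137, 142 and 133 CPM (0.14, adjusted p = 0.00163), and with BSJ-04-146 the log2 fold change was 0.10 (adjusted p = 0.0203), or 0.21 with totals alone. The call with BSJ-04-146 was lost with DESeq2, which used its own size factors, and with no filter. It was also lost without DMSO replicate 1 or 3 or BSJ-04-146 replicate 2 or 3 (adjusted p up to 0.096).

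Ilk, for the pseudokinase at the center of that complex, was at 29.2, 27.4 and 26.9 CPM with DMSO and at 41.7, 37.3 and 34.8 CPM with VS-4718. The groups did not overlap, and the log2 fold change was 0.45 (95% CI 0.33 to 0.57, adjusted p = 9.45e-08). In the same comparison Taf10, which covers most of the Ilk exons on the opposite strand, had a log2 fold change of -0.02 (adjusted p = 0.879). Ilk also rose with BSJ-04-146 to a mean of 32 CPM (0.20, adjusted p = 0.00705, or 0.31 with totals alone), where Taf10 fell (-0.24, adjusted p = 0.013). The increase with PROTAC FAK degrader 1 (0.18, adjusted p = 0.0125) came with libraries that overlapped DMSO and was lost without DMSO replicate 3 or PROTAC FAK degrader 1 replicate 2 or 3 (adjusted p up to 0.0727).

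Compounds used at the same dose were then compared with each other, in 11 pairs, of which 10 were among the 5 compounds at 1 μM. Each count of the 10 genes is given beside the share of all genes called and then the share among the 6614 abundant genes. The 10 genes differed most often between VS-4718 and PROTAC FAK degrader 1, where all 10 were called, 8 higher and 2 lower with VS-4718, beside 68.9% of all genes tested and 85.0% of abundant ones. Bcar1 was 0.79 higher (95% CI 0.71 to 0.87, adjusted p = 2.6e-20) and Zyx 0.78 higher (95% CI 0.70 to 0.87, adjusted p = 9.52e-20) on the log2 scale, whereas Lims1 was lower by 0.49 (log2 difference -0.49, adjusted p = 1.91e-14) and Ptk2 had a difference of -0.21 (adjusted p = 1.49e-06). VS-4718 differed from defactinib in 8 genes (34.0% and 52.3%), from IN10018 in 8 (40.9% and 61.0%) and from GSK2256098 in 7 (27.1% and 43.2%). In these 3 pairs Pxn, Bcar1, Src, Tln1, Zyx and Ilk were each higher with VS-4718. The largest of them was Bcar1 against defactinib, with 241 CPM against 151 CPM and a log2 difference, defactinib over VS-4718, of -0.67 (95% CI -0.75 to -0.60, adjusted p = 5.85e-17).

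The other kinase inhibitors at 1 μM differed less in these genes. Defactinib and GSK2256098 differed in 4 genes beside 11.5% and 20.0%, with Bcar1, Src, Zyx and Parva lower with defactinib. Defactinib and IN10018 differed in 5 genes beside 34.5% and 54.4%, all lower with defactinib, and the count was 2 to 5 when single libraries were left out. Of these, Fermt2 differed by -0.25 on the log2 scale (95% CI -0.32 to -0.19, adjusted p = 7.22e-08). GSK2256098 and IN10018 differed in 2 genes beside 20.9% and 36.1%, with Zyx higher by 0.16 (adjusted p = 0.00286) and Fermt2 at a difference of -0.20 (adjusted p = 1.75e-05) with GSK2256098. PROTAC FAK degrader 1 differed from defactinib in 7 genes (68.9% and 84.8%), from GSK2256098 in 7 (67.6% and 84.3%) and from IN10018 in 8 (63.5% and 82.1%), and in each of these pairs Ptk2, Pxn and Lims1 were higher and Bcar1, Zyx and Parva lower with the PROTAC.

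At 0.1 μM, GSK215 and BSJ-04-146 differed in 1 of the 10 genes, beside 22.5% of all genes tested and 39.2% of abundant ones. Tln1 had a mean of 424 CPM with GSK215 and 396 CPM with BSJ-04-146, with libraries that overlapped (log2 difference 0.10, 95% CI 0.03 to 0.17, adjusted p = 0.0309), and the call was lost without replicate 1 or 2 of either compound (adjusted p up to 0.191). Zyx was called as well, at a difference of 0.11 (adjusted p = 0.0487), when libraries were scaled by totals alone. Ptk2 differed by -0.03 on the log2 scale (95% CI -0.11 to 0.04, adjusted p = 0.579) and Lims1 by -0.0049 (95% CI -0.09 to 0.08, adjusted p = 0.955). Bcar1 differed by -0.04 (95% CI -0.13 to 0.04, adjusted p = 0.531), so that differences of about these sizes were not resolved by 3 libraries a group. The dose of PROTAC FAK degrader 1 was 1 μM, and its levels are set beside theirs without a test. Ptk2 was at 97.7 CPM with PROTAC FAK degrader 1 and at 77.9 and 79.7 CPM with GSK215 and BSJ-04-146, and Lims1 was at 141 CPM beside 97.7 and 98 CPM.

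**Figure D3:**
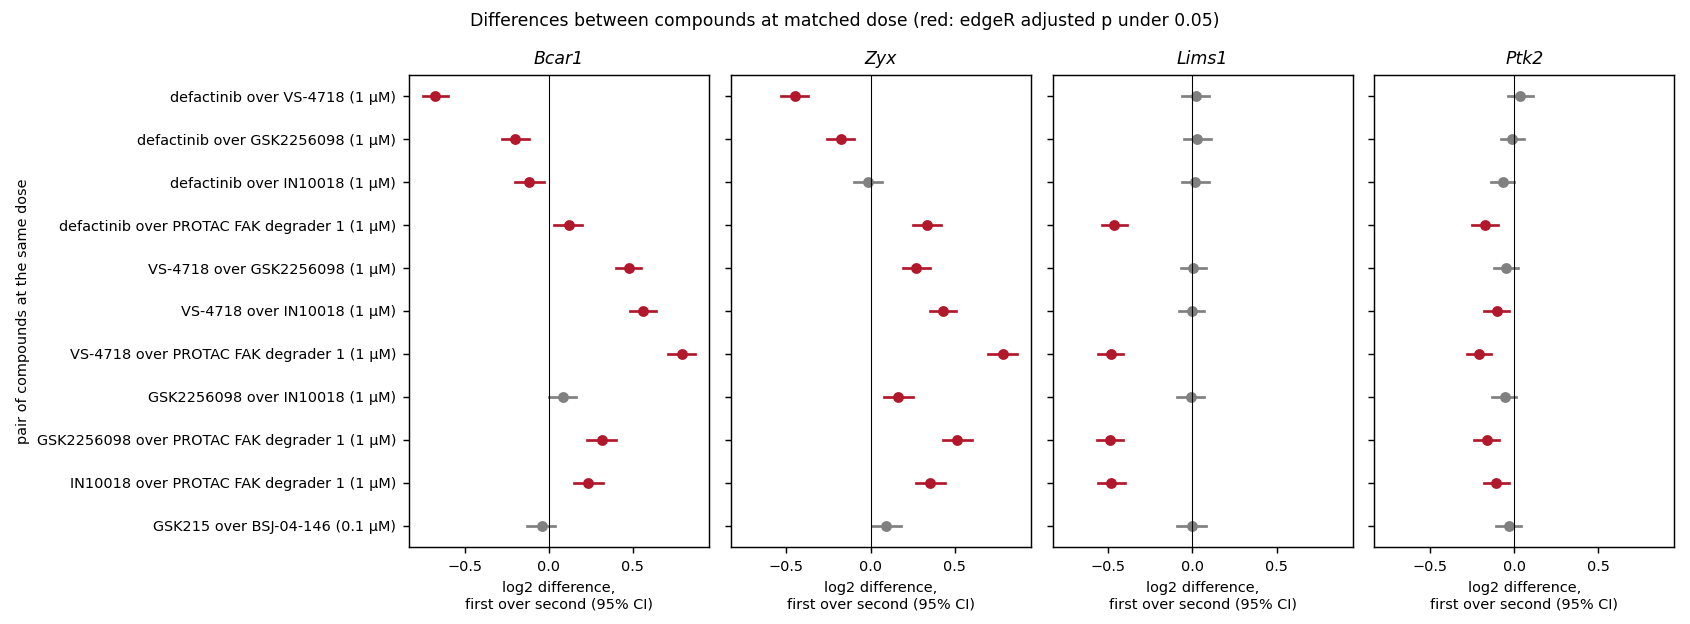
Log2 difference between compounds at the same dose for Bcar1, Zyx, Lims1 and Ptk2, with the first compound of each pair over the second. Points are estimates, lines 95% confidence intervals, and red marks an edgeR adjusted p under 0.05; Lims1 is marked in the 4 pairs with PROTAC FAK degrader 1 and in no other.

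Across the 24 libraries, the levels of Bcar1, Src and Zyx rose and fell together. The Pearson correlation of log2 CPM was 0.90 between Bcar1 and Src, 0.90 between Bcar1 and Zyx and 0.81 between Src and Zyx. Of 45 pairs of the 10 genes, 5 exceeded 0.8, the other 2 being Zyx with Parva (0.83) and Pxn with Ilk (0.81), and 10 were below 0. The lowest was -0.79 between Parva and Lims1. The libraries share treatments and depth, and these correlations are descriptions.

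**Figure D4:**
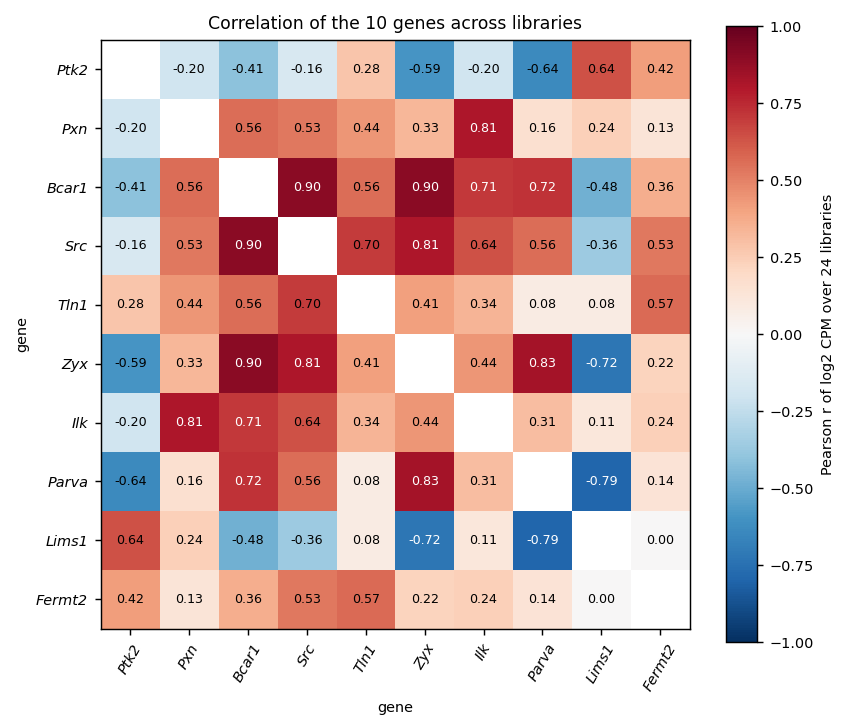
Pearson correlation of log2 CPM between each pair of the 10 genes over the 24 libraries, as a color and a printed value. Bcar1, Src and Zyx form a block of 0.81 to 0.90, and Parva with Lims1 has the lowest value, -0.79.

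Of 10278 genes with a mean of at least 5 CPM, those most like Ptk2 over the 24 libraries were Eif3m (r = 0.956), Cct4 (0.954), Opa1 (0.953), Eif3e (0.952) and Maoa (0.949). Eif3m and Eif3e encode subunits of a translation initiation factor, Cct4 a subunit of a cytosolic chaperonin, Opa1 a mitochondrial fusion protein and Maoa a monoamine oxidase. Those most like Bcar1 were Map7d1 (0.959), Brd2 (0.952), Crtc2 (0.947), Kctd5 (0.915) and Inppl1 (0.907). No other member of the 10 was in either set.

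The 10 genes were then placed beside a list of 66 other genes of focal adhesions, of which 60 were tested. Ptk2b, Efs, Cass4, Fermt1, Kank4 and Tns4 were not tested, with at most 7 counts in any library. VS-4718 raised 31 of the 60 and lowered 3, beside 20.4% and 18.9% of all genes tested, with a median log2 fold change of 0.159. GSK2256098 raised 17 and lowered 1, beside 6.36% and 6.09%, and defactinib raised 7 and lowered 2, beside 11.4% and 11%. IN10018 raised 7 and lowered 5, beside 6.44% and 6.85%. PROTAC FAK degrader 1 raised 27 and lowered 21, beside 34.1% and 32.7% of all genes tested. GSK215 raised 26 and lowered 19, beside 27.4% and 27.2%, and BSJ-04-146 raised 29 and lowered 15, beside 27.7% and 26.9%. In either direction, the 34 of 60 called with VS-4718 stood beside 39.2% of all genes but 59.2% of the abundant genes defined above, and the 12 with IN10018 beside 13.3% and 23.9%. The 48 with PROTAC FAK degrader 1 stood beside 66.8% and 83.8%, the 45 with GSK215 beside 54.7% and 74.4%, and the 44 with BSJ-04-146 beside 54.6% and 74.4%. The 18 with GSK2256098 stood beside 12.5% and 22.6%, and the 9 with defactinib beside 22.4% and 38.5%.

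Of the genes that link adhesions to actin, 18 were tested. VS-4718 raised 12 of them and lowered 0, defactinib raised 4 and lowered 0, GSK2256098 raised 7 and lowered 0, and IN10018 raised 3 and lowered 3. PROTAC FAK degrader 1 raised 9 and lowered 7, GSK215 raised 13 and lowered 3, and BSJ-04-146 raised 10 and lowered 5. These counts are to be read beside the shares of all genes and of abundant genes given above. Other roles in the list were less one-sided or smaller. With VS-4718, 8 of 16 adaptors and GTPase regulators were higher and 0 lower, and 3 of 6 and 0 of the zyxin family. The FAK, Cas and paxillin families had 2 of 3 higher, and the talin and kindlin families 1 of 4. The Src family and its regulators had 4 higher and 1 lower of 8, and partners of the ILK complex 1 higher and 2 lower of 5. Tns1, for tensin-1, an actin-binding protein of mature adhesions, was at 43, 44.8 and 41.8 CPM with DMSO, at 234, 241 and 232 CPM with GSK215 and at 314, 309 and 351 CPM with BSJ-04-146. Tns1 thus rose 5.45-fold and 7.51-fold (log2 fold changes 2.45 and 2.91, adjusted p = 5.53e-34 and 1.96e-36), and it rose 2.06-fold with VS-4718 (1.05, adjusted p = 1.12e-20). Smaller increases were 1.55-fold with GSK2256098 (0.64, adjusted p = 1.05e-12) and 1.31-fold with defactinib (0.39, adjusted p = 1.2e-07). Its mean was 64.4 CPM with PROTAC FAK degrader 1 and 48.8 CPM with IN10018, against 43.2 CPM with DMSO. The LIM protein gene Csrp1 rose with VS-4718 from a mean of 59.8 CPM to 107 CPM (0.84, adjusted p = 9.08e-19) and with PROTAC FAK degrader 1 to 104 CPM (0.81, adjusted p = 3e-19), and it rose with the other compounds except defactinib, which left it at 61.9 CPM.

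Flna, for filamin A, which crosslinks actin, fell with PROTAC FAK degrader 1, in which Zyx and Bcar1 also fell. It had log2 fold changes of -0.78 (adjusted p = 1.23e-24) with this compound and 0.23 (adjusted p = 1.07e-07) with defactinib, and it also rose with VS-4718 (0.48), GSK2256098 (0.15) and GSK215 (0.16) and fell with IN10018 (-0.12). With BSJ-04-146 the value was -0.07, and its libraries at 1482, 1490.4 and 1573 CPM overlapped those of DMSO at 1589, 1602 and 1569 CPM. Vcl, for vinculin, which binds talin, had a mean of 163 CPM with DMSO and fell to 104 CPM with PROTAC FAK degrader 1 (-0.66, adjusted p = 1.23e-18), 139 CPM with IN10018 (-0.23, adjusted p = 1.76e-05) and 146 CPM with BSJ-04-146 (-0.17, adjusted p = 0.000189). It rose to 198 CPM with VS-4718 (0.28, adjusted p = 2.46e-08) and 195 CPM with GSK215 (0.25, adjusted p = 1.22e-07). Scaling by totals alone moved the all-gene median log2 value from 0.018 to 0.126 with BSJ-04-146 and from 0.021 to 0.143 with GSK215. The size of small changes with these compounds therefore depends on the scaling. Fyn, a Src family kinase, rose with all 7 compounds, from a mean of 41 CPM with DMSO to 45.9 to 56.2 CPM with 6 of them and 90.4 CPM with PROTAC FAK degrader 1 (1.14, adjusted p = 4.67e-25). Yes1, another kinase of that family, fell with VS-4718 (-0.21, adjusted p = 0.00437), GSK215 (-0.19, adjusted p = 0.0102) and BSJ-04-146 (-0.23, adjusted p = 0.00158) and rose with PROTAC FAK degrader 1 (0.22, adjusted p = 0.0012).

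Partners of the ILK complex and signaling regulators made up the remaining genes named. Lims2, for PINCH-2, the paralog of PINCH-1, had 3 to 9 counts in the DMSO libraries and 22 to 53 in those of the 3 PROTACs, at means of 0.269, 1.96, 1.45 and 1.47 CPM for DMSO, PROTAC FAK degrader 1, GSK215 and BSJ-04-146. Elmo1 had 3 to 4 counts per library with DMSO and 25 to 35 with PROTAC FAK degrader 1 (0.139 and 1.56 CPM). Parvb fell with defactinib (-0.15, adjusted p = 0.00889), VS-4718 (-0.13) and GSK215 (-0.28) and rose with PROTAC FAK degrader 1 (0.24) and BSJ-04-146 (0.12). Pak2 fell with defactinib (-0.14, adjusted p = 0.00861) and the 3 PROTACs (-0.16 to -0.29). Without defactinib replicate 2 the changes of Parvb and Pak2 with defactinib missed the threshold. Ilkap, a phosphatase of ILK, fell with VS-4718 (-0.21, adjusted p = 5.14e-05) and PROTAC FAK degrader 1 (-0.12) and rose with BSJ-04-146 (0.16). Arhgef28 rose with PROTAC FAK degrader 1 from a mean of 17.5 CPM to 33.5 CPM (0.94, adjusted p = 5.74e-17). It fell with GSK215 to 12.6 CPM (-0.48, adjusted p = 3.31e-07), BSJ-04-146 to 12.9 CPM (-0.44, adjusted p = 1.55e-06) and GSK2256098 to 15.3 CPM (-0.19, adjusted p = 0.0441), the last of which missed the threshold without any of the 6 libraries compared, with the replicate block and with DESeq2. The low-count gene Parvg had log2 fold changes of -0.52 with IN10018 (adjusted p = 0.0356) and -0.47 with GSK215 (adjusted p = 0.021). Both missed the threshold with DESeq2 and without DMSO replicate 1 or 2 or replicate 1 or 2 of the compound. Fermt3, for the kindlin of blood cells, fell with BSJ-04-146 (-0.44, adjusted p = 0.00396) and GSK215 (adjusted p = 0.00411).

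**Figure D5:**
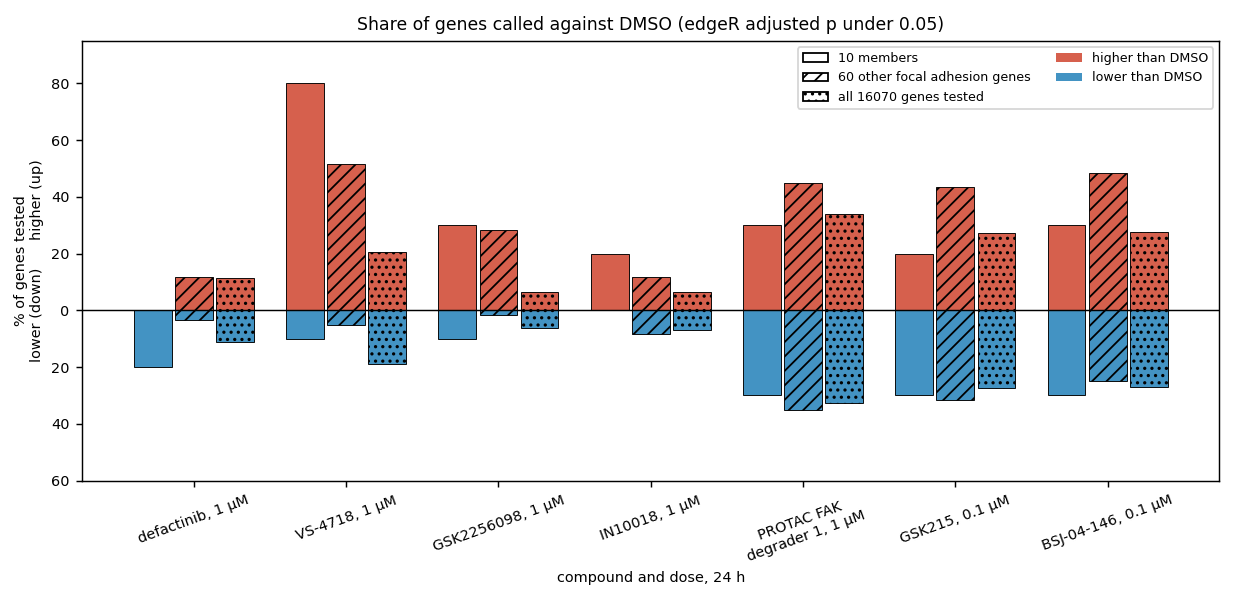
Share of the 10 genes (plain), the 60 other focal adhesion genes (hatched) and all 16070 genes tested (dotted) called higher (up, red) or lower (down, blue) than DMSO with each compound, in percent. With VS-4718, 8 of 10 and 31 of 60 were higher beside 20.4% of all genes tested.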

How the data were processed

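MS03 cells were treated for 24 hours in 8 groups of 3 biological replicates, and the submitters' processing notes name Trimmomatic 0.36, STAR 2.5.2b, featureCounts of Subread 1.5.2 and GRCm38. The authors deposited raw read counts per Ensembl gene, whole numbers without normalization, and library numbers in the labels matched the table's columns. In R 4.3.3 with edgeR 4.0.16, counts were filtered with filterByExpr and scaled by TMM, and all 24 libraries were fitted with 1 coefficient per group (glmQLFit and glmQLFTest, two-sided, 16 residual degrees of freedom). Adjusted p is Benjamini-Hochberg's, taken over the 16070 genes of each comparison, and was called under 0.05. The replicates may share cultures, and p-values measure the spread between them. Same-numbered libraries did not deviate together. Replicates differed by more than sampling noise (chi-square per degree of freedom 1.8 to 9.44 over 24 pairs), so none was a copy. Coordinates and exon lengths are from GENCODE M21, which held 48970 of the 49315 identifiers and all 10 genes.

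The members, the focal adhesion list, the markers and the tests were chosen with earlier results of these data known. Named genes were all members, for each compound the 2 largest increases and 2 largest decreases of the focal adhesion list past the threshold with libraries beyond all of DMSO, and the 5 genes closest to Ptk2 and to the member of widest range. Some genes that this rule names are not reported here. Alternatives were DESeq2 1.42.0, library totals alone, limma-trend (limma 3.58.1) on log2(CPM + 4), a fit of the 6 libraries of a comparison alone, a replicate block, omission of the filter, adjustment over all comparisons, a 1.5-fold minimum and leaving out each library in turn. The script was tested on simulated data. In bulk RNA, fewer cells of a type and less RNA per cell cannot be told apart.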

Additional observations from a re-analysis of the deposited data

How the results depend on the processing

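Of 490 values of the 10 genes against DMSO under 7 other settings, 468 kept their side of the threshold, 8 lost their call, 12 gained one and 2 called values turned direction. Both turned with library totals alone and GSK215, to 0.0012 for Tln1 and 0.0105 for Fermt2, and Ptk2 with PROTAC FAK degrader 1 was 0.12 and called. Values that were called in neither setting also changed sign and are among the 468, such as Lims1 with GSK215, from -0.061 to as high as 0.0615. Counts of called genes moved by over 1.5 times with library totals alone and with no filter, to 1 for defactinib, and with these and with the 6 libraries alone, to 2 for GSK215 against BSJ-04-146. Smaller moves included VS-4718 at 8 with DESeq2, no filter and the 6 libraries alone, GSK2256098 at 5 under 3 settings, and PROTAC FAK degrader 1 at 8 with library totals alone. A minimum of 1.5-fold left 1 gene with VS-4718 and 0 with each other compound. Leaving out single libraries, the count was 1 to 1 for defactinib, 2 to 3 for GSK2256098, 1 to 2 for IN10018, 2 to 5 for defactinib against IN10018 and 0 to 1 for GSK215 against BSJ-04-146, and Ptk2 with GSK2256098 was -0.15 to -0.11. The cause was not tested.

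The replicate numbers share only a number: correlations of same-numbered deviations were -0.20 to 0.13 and 6 of 24 libraries were closest to their own number. With the replicate block, the counts of called genes were 9 for VS-4718, 2 for defactinib and 6 for PROTAC FAK degrader 1, and all 70 values against DMSO kept their call. PROTAC libraries were shallower, which widens their intervals. No test of outlying libraries was run in these groups of 3.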
